A study of Homo sapiens with 8 samples.

Results

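The genes described here are 50 genes of DNA replication and S phase, listed by symbol for their known roles, with earlier results of these data known, out of 26760 genes in a table of RNA sequencing counts from LK2 cells, an established human lung squamous carcinoma line. All 50 were in the table and all 50 were among the 12303 genes with enough counts to be tested. The series holds 8 libraries in 4 groups of 2. Constitutive DNp63 cells carried DNp63, the p63 isoform that lacks the N-terminal transactivation domain, in the vectors pLEX_306 (replicate 1) and pLEX_307 (replicate 2). GFP cells carried GFP in the same pair of vectors and are the controls of the constitutive system. Induced cells carried DNp63 in the doxycycline-inducible vector pLIX_403 and received 2 µg/ml doxycycline for 6 days, and uninduced cells carried the same vector without the drug for the same 6 days. Both induced and uninduced cells thus hold the inducible DNp63 construct, no group combined GFP with doxycycline, and the replicates of the constitutive system differ in vector while those of the inducible system do not. Whether replicates were cultured separately is not said in the labels, so the p-values measure only the spread between these samples. In the constitutive system that spread includes any difference between the vectors, and in the inducible system it may be technical. The fit of all 8 libraries shares 1 estimate of spread over both. Polyadenylated RNA was read as paired 38 bp ends, and the libraries held 2758158 to 10372248 counts in genes, so that 3 counts correspond to 0.292 to 1.11 CPM (counts per 1e6 counts, with library sizes scaled by edgeR's TMM method).

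Before each S phase, origins of replication are licensed: the origin recognition complex, CDC6 and CDT1 load the ring of MCM2 to MCM7 onto DNA. CDC45, the GINS complex and MCM10 then turn the ring into an active helicase, DNA polymerases copy both strands behind it with the sliding clamp PCNA, and ribonucleotide reductase, thymidylate synthase and thymidine kinase supply the nucleotides. Many of these genes are transcribed at the passage out of G1 by E2F factors, which the retinoblastoma protein family holds in check. p63 is the master regulator of squamous and basal epithelium.

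As a check of the labels, TP63 stood at 1850.1 and 3816 CPM in constitutive DNp63 cells, against 0.739 and 1.91 CPM in GFP cells, and at 412 and 422 CPM in induced cells, against 12.7 and 14.8 CPM in uninduced cells. Counts are per gene, so isoforms of TP63 and the construct's RNA are not separated from the cell's own. Of 7 squamous markers 6 were tested, of which CALML3, DSG3, KRT6A and TRIM29 rose in the averaged comparison described next and SOX2 fell. KRT14 had no count in any library, and KRT6A had 557 and 395 CPM in constitutive DNp63 cells, against 2.22 and 5.93 CPM in GFP cells, and 24.0 and 26.2 CPM in induced cells, against 4.23 and 4.96 CPM in uninduced cells. Summed over the list, fibroblast markers (6 genes) lay between 8.28 and 30.5 CPM, immune markers (5 genes) between 0.494 and 4.29 CPM and endothelial markers (4 genes) between 0 and 2.33 CPM over the 8 libraries. COL1A1, CD68 and KDR alone of these were tested, and KDR was called lower, with 0 counts in both constitutive DNp63 libraries, 3 and 11 in GFP, 12 and 3 in induced and 11 and 22 in uninduced libraries.

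Replication genes were lower in DNp63-expressing cells than in their controls. In the comparison that averages both systems, 21 of the 50 genes fell and none rose (edgeR's quasi-likelihood test, Benjamini-Hochberg adjusted over all tested genes, adjusted p below 0.05), while 2.41% of all tested genes were called lower and 3.26% higher (5.67% in either direction). The median log2 fold change of the 50 was −0.63, a fold of 0.648, against −0.01 over all tested genes, and 49 of the 50 estimates were negative, against 50.8% of all tested genes. Estimates ran from −1.77 for MCM10 to 0.22 for CCNE1, and at an unadjusted p under 0.05 the counts were 37 lower and 0 higher, against 1128 lower and 1218 higher of all 12303 tested genes. In bulk RNA, fewer cells in S phase and less RNA of these genes per cell cannot be told apart. MCM10 and RRM2 passed without any 1 of the 8 libraries, with adjusted p of at most 0.0224 and 0.0269, but the count changed with the libraries in the fit: it was 2 without either induced library, 3 without uninduced replicate 1, 4 without uninduced replicate 2, 12 without GFP replicate 2, 22 and 25 without DNp63 replicates 2 and 1, and 29 without GFP replicate 1. The lower calls over all genes changed in the same fits, to 76 and 98 without induced replicates 1 and 2 and to 113 and 101 without uninduced replicates 1 and 2, against 296 with all 8 libraries. The median of the 50 stayed between −0.70 and −0.50 with any 1 library left out.

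**Figure D1:**
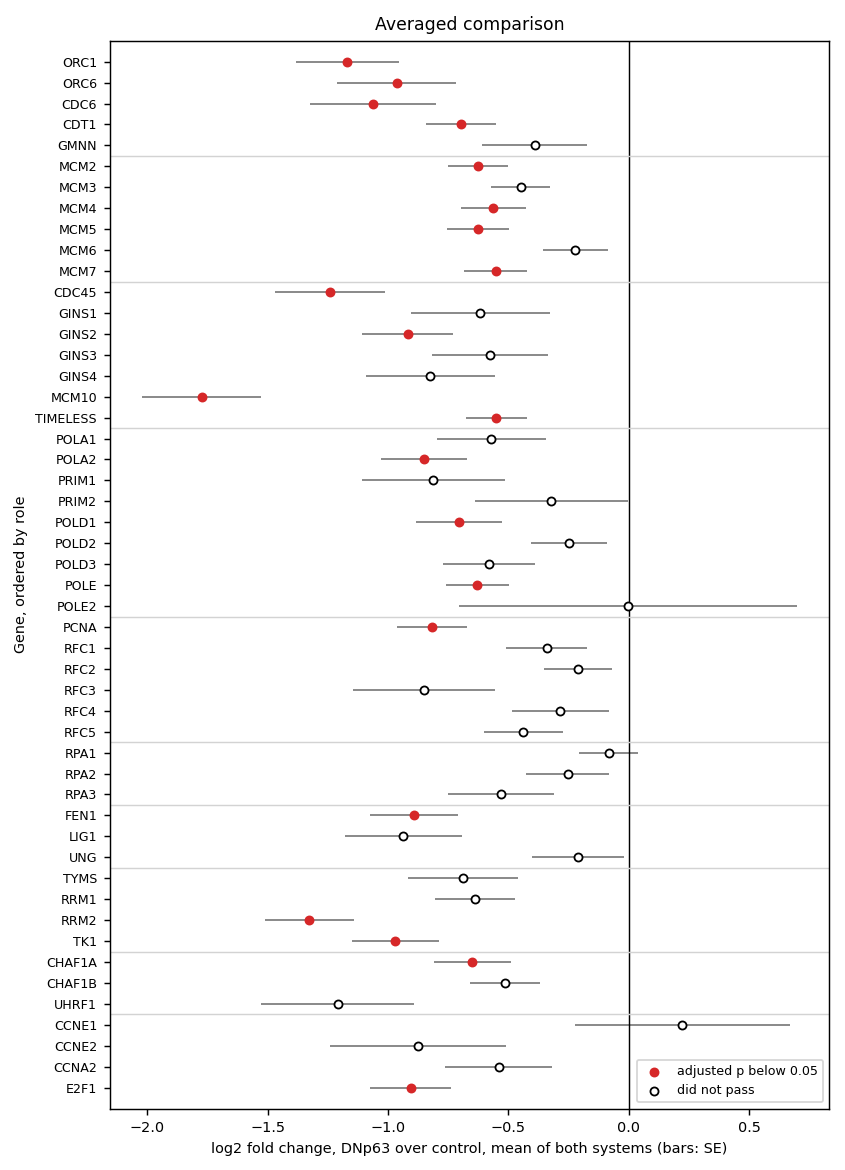
Log2 fold change (x axis) of each of the 50 replication genes, ordered by role (y axis), for DNp63 over control averaged over both systems. Bars are standard errors from edgeR's fit to 8 libraries, filled points passed at an adjusted p below 0.05 and open points did not, and all points but that of CCNE1 (0.22) lie at or below 0.

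Summed over the 50 genes, expression was 3837 and 3282 CPM in constitutive DNp63 cells, against 4555 and 5748 CPM in GFP cells. It was 4890 and 5118 CPM in induced cells, against 7572 and 7502 CPM in uninduced cells. The groups did not overlap in either system, and the uninduced libraries stood above all others. As shares of all counts these sums were 0.401% and 0.344% in constitutive DNp63 cells, 0.447% and 0.563% in GFP cells, 0.485% and 0.497% in induced cells, and 0.742% and 0.744% in uninduced cells. The GFP libraries differed from each other: 9 of the 50 genes were higher in GFP replicate 1 than in GFP replicate 2, whereas 37 were higher in DNp63 replicate 1 than in DNp63 replicate 2. The replicates of the inducible system lay closer, with a median difference over the 50 genes (replicate 1 minus 2, log2 CPM) of −0.06 in induced and −0.02 in uninduced cells, against 0.27 in constitutive DNp63 and −0.45 in GFP cells.

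**Figure D2:**
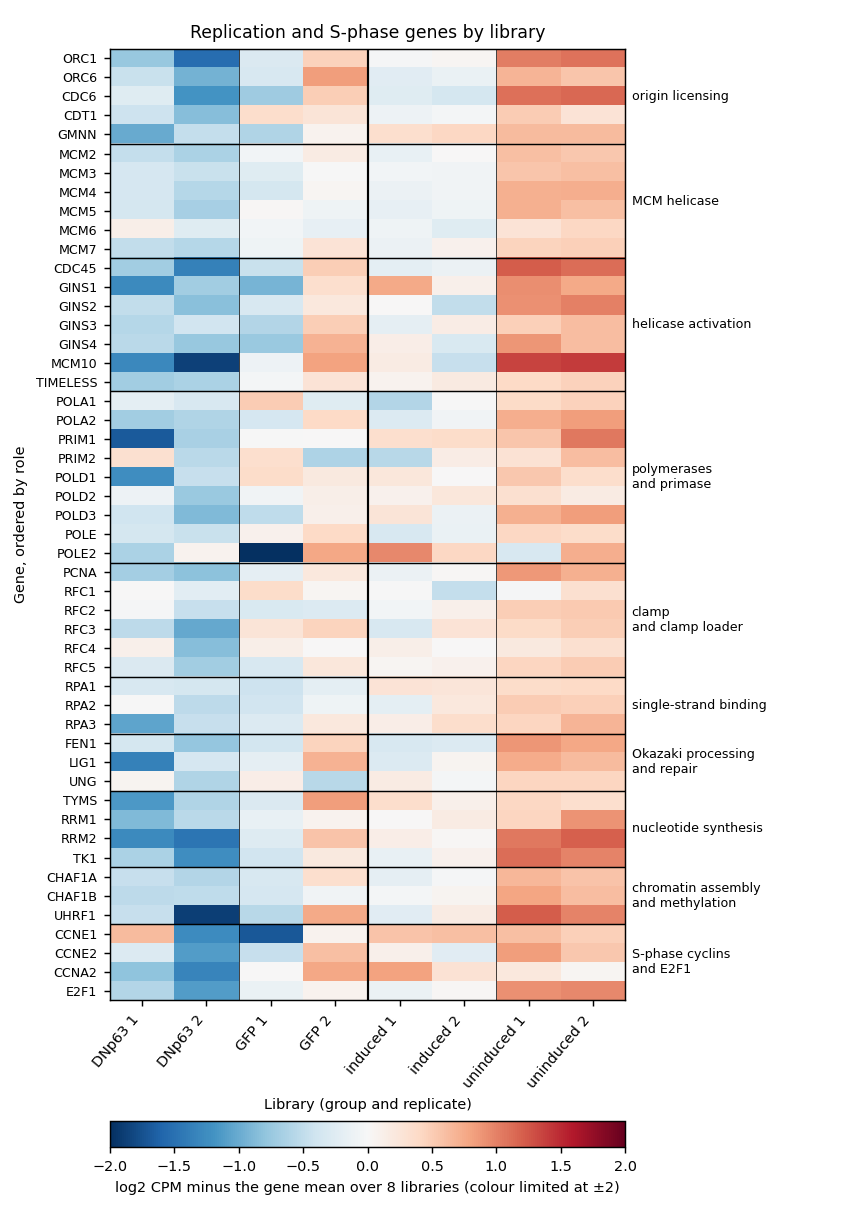
Each row is 1 of the 50 replication genes by role and each column 1 of the 8 libraries, and colour gives log2 CPM (prior count 2) minus the gene's mean over the libraries. The median deviation was −0.48 and −0.64 in constitutive DNp63, −0.28 and 0.21 in GFP, −0.05 and 0.02 in induced, and 0.58 and 0.61 in uninduced libraries.

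Promoter windows of 300 bases (250 before the start and 50 after it, RefSeq, GRCh38.p14) were found for 43 of the 50 genes, in 56 windows. RPA2, RPA3, GINS4, MCM4, MCM5, POLD3 and CCNE2 had no entry. E2F-type letters (TTTCCCGC, TTTGGCGC, TTTCGCGC or TTTGCCGC, on either strand, where matches on opposite strands may overlap) stood in 22 of the 56 windows (39.3%), against 1164 of 35116 windows of all genes (3.31%). The 21 genes with such a match held 9 of the 21 that fell and had a median log2 fold change of −0.63, while the 22 without one held 10 and had a median of −0.59. A match is a string of letters and not a bound site. The windows of 5 genes whose values follow are printed in gene orientation, 5′ to 3′, with the E2F-type letters in capitals: E2F1, CDC6 and MCM2, which fell, MCM6, which did not pass, and CCNA2, whose window holds no match and whose estimates had opposite signs in the systems.
E2F1, chr20:33686336-33686635, minus strand: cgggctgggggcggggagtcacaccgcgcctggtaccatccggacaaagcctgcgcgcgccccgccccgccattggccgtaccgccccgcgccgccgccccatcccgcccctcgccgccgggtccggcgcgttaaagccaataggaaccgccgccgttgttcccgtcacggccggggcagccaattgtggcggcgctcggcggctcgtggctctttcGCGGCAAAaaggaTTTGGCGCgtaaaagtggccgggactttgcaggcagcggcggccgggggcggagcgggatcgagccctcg
CDC6, chr17:40287629-40287928, plus strand: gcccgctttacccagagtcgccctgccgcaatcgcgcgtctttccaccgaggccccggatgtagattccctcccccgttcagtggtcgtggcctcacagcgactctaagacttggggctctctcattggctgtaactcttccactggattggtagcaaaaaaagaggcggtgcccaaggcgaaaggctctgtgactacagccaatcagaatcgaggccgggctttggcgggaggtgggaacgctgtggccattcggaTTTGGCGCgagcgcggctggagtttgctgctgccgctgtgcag
MCM2, chr3:127598161-127598460, plus strand: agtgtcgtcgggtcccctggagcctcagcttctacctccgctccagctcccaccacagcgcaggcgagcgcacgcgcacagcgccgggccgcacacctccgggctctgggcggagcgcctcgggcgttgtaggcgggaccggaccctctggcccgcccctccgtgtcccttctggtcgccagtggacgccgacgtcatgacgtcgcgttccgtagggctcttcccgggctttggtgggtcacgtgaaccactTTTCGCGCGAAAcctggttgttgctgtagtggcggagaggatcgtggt
MCM6, chr2:135876394-135876693, minus strand: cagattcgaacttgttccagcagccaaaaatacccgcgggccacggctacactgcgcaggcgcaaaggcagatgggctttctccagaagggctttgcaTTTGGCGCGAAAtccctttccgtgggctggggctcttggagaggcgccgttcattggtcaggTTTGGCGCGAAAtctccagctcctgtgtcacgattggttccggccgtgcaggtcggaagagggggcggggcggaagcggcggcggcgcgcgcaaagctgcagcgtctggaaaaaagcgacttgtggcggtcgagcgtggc
CCNA2, chr4:121823834-121824133, minus strand: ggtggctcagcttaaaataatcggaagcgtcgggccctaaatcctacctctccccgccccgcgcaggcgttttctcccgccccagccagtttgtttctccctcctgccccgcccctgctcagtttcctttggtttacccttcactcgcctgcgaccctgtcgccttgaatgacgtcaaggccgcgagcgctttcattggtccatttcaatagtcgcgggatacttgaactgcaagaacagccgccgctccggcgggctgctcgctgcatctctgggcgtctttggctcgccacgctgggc
The matches of E2F1 begin 33 and 20 bases before its start. That of CDC6 begins 7 bases after its start, and MCM2 has a pair of overlapping matches on opposite strands that begin 2 and 6 bases after its start. In MCM6 the pairs of overlapping matches begin 152 and 148 bases and 90 and 86 bases before the start.

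Of the 5 licensing genes 4 fell, with a median log2 fold change of −0.96 over the 5. ORC1, the ATPase subunit of the origin recognition complex, had 18.0 and 10.5 CPM in constitutive DNp63 cells, against 25.1 and 42.6 CPM in GFP cells. It had 30.5 and 31.7 CPM in induced cells, against 63.0 and 65.7 CPM in uninduced cells. All DNp63-expressing libraries lay below their own controls, and ORC1 fell by 1.17 on the log2 scale (averaged, SE 0.21, adjusted p = 0.0102). CDC6, which recruits the MCM ring to the origin complex, had 38.6 and 19.8 CPM in constitutive DNp63 cells, against 27.7 and 64.2 CPM in GFP cells, where the groups overlap. In the inducible system CDC6 had 38.7 and 35.6 CPM in induced cells, against 98.6 and 102 CPM in uninduced cells, and its averaged log2 fold change was −1.06 ± 0.26 (adjusted p = 0.0415). CDT1, the loading partner of CDC6, had 61.4 and 45.2 CPM in constitutive DNp63 cells, against 104 and 98.0 CPM in GFP cells. CDT1 had 76.5 and 79.5 CPM in induced cells, against 117 and 98.9 CPM in uninduced cells. All 4 DNp63-expressing libraries were thus below all 4 control libraries. Of the 50 genes, only CDT1, MCM5 and POLE had this separation, and its share of all tested genes was not counted. The averaged log2 fold change of CDT1 was −0.70 ± 0.15 (adjusted p = 0.0195). ORC6 also fell (averaged log2 fold change −0.96 ± 0.25, adjusted p = 0.0484), and GMNN, the inhibitor of CDT1, had −0.39 ± 0.22 and did not pass (adjusted p = 0.369). Without induced replicate 1, induced replicate 2 or uninduced replicate 2 none of the 4 calls held (adjusted p 0.0877 to 0.219, 0.0641 to 0.175 and 0.0584 to 0.16), and without uninduced replicate 1 that of ORC1 alone did (the others 0.132 to 0.176). CDC6 and ORC6 were also lost without GFP replicate 2 (0.156 and 0.162) and without DNp63 replicate 2 (0.0535 and 0.0749).

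Of the 6 subunits of the MCM ring, the core of the replicative helicase, MCM2, MCM4, MCM5 and MCM7 fell, and the median log2 fold change over the 6 was −0.56. MCM2 had 419 and 376 CPM in constitutive DNp63 cells, against 557 and 655 CPM in GFP cells. It had 523 and 583 CPM in induced cells, against 879.9 and 848 CPM in uninduced cells, and its averaged log2 fold change was −0.63 ± 0.12 (adjusted p = 0.0154). MCM5 had 141 and 114 CPM in constitutive DNp63 cells, against 183 and 169.8 CPM in GFP cells. In the inducible system it had 161 and 169.6 CPM in induced cells, against 296 and 274 CPM in uninduced cells. Its 4 DNp63-expressing libraries lay below all 4 controls, with an averaged log2 fold change of −0.63 ± 0.13 (adjusted p = 0.0181). MCM7 had 495 and 467 CPM in constitutive DNp63 cells, against 653 and 839 CPM in GFP cells, and 638 and 740.2 CPM in induced cells, against 946 and 966 CPM in uninduced cells. Its averaged log2 fold change was −0.55 ± 0.13 (adjusted p = 0.0343), and that of MCM4 was −0.56 ± 0.14 (adjusted p = 0.036). The MCM4 groups overlapped in the constitutive system (log2 fold change −0.32 ± 0.19, adjusted p = 0.37) but not in the inducible one (−0.81 ± 0.19, adjusted p = 0.211). MCM3 did not pass, at −0.45 ± 0.12 (adjusted p = 0.0599). MCM6 had overlapping groups in the constitutive system, with 213 and 165 CPM in constitutive DNp63 cells, against 188 and 174 CPM in GFP cells. There its log2 fold change was 0.06, whereas in the inducible system it had 184 and 166 CPM in induced cells, against 237 and 260.2 CPM in uninduced cells, and the averaged value was −0.22 ± 0.13 (adjusted p = 0.419). None of the 4 calls held without 1 of the 4 libraries of the inducible system (adjusted p 0.131 to 0.218 and 0.0761 to 0.152 without induced replicates 1 and 2, 0.106 to 0.161 and 0.0944 to 0.184 without uninduced replicates 1 and 2), and MCM4 and MCM7 were lost without GFP replicate 2 (0.0769 and 0.0723).

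Helicase activation held the lowest estimate among the 50 genes and 4 of its 7 genes fell, with a median of −0.83. MCM10, which helps to open the loaded helicase, had 9.72 and 6.40 CPM in constitutive DNp63 cells, against 22.5 and 42.6 CPM in GFP cells. It had 27.3 and 17.5 CPM in induced cells, against 62.2 and 64.8 CPM in uninduced cells. Neither system's groups overlapped, and MCM10 had an averaged log2 fold change of −1.77 ± 0.25 (adjusted p = 0.00199), with −2.06 ± 0.37 in the constitutive (adjusted p = 0.00766) and −1.49 ± 0.32 in the inducible system (adjusted p = 0.158). CDC45, the helicase subunit that joins the ring at firing, had 15.1 and 9.50 CPM in constitutive DNp63 cells, against 18.1 and 34.9 CPM in GFP cells. It had 21.7 and 22.8 CPM in induced cells, against 58.0 and 54.2 CPM in uninduced cells, and its averaged log2 fold change was −1.24 ± 0.23 (adjusted p = 0.0104). GINS2, a subunit of the GINS complex, had 24.3 and 19.0 CPM in constitutive DNp63 cells, against 27.3 and 39.6 CPM in GFP cells, and 34.5 and 24.2 CPM in induced cells, against 65.2 and 69.2 CPM in uninduced cells. The averaged log2 fold change of GINS2 was −0.92 ± 0.19 (adjusted p = 0.018). GINS1, GINS3 and GINS4 had estimates of −0.62, −0.58 and −0.83 and did not pass (adjusted p 0.113 to 0.279). TIMELESS, which protects and paces the fork, had 89.7 and 93.3 CPM in constitutive DNp63 cells, against 142 and 175 CPM in GFP cells. Induced cells had 153 and 164 CPM of TIMELESS, against 192 and 199 CPM in uninduced cells, and the averaged log2 fold change was −0.55 ± 0.13 (adjusted p = 0.0317). GINS2 and TIMELESS were lost without any 1 library of the inducible system (adjusted p 0.0516 to 0.187) and without GFP replicate 2 (0.0669 and 0.0745). CDC45 was lost without induced replicate 1 (0.0877), induced replicate 2 (0.0632) or uninduced replicate 1 (0.0525).

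Of the 9 polymerase and primase genes 3 fell, and the median was −0.58. POLE, the catalytic subunit of the leading-strand polymerase epsilon, had 146 and 137 CPM in constitutive DNp63 cells, against 198 and 247 CPM in GFP cells. It had 149.6 and 171 CPM in induced cells, against 248 and 240.0 CPM in uninduced cells, and all 4 DNp63-expressing libraries were below all 4 controls (averaged log2 fold change −0.63 ± 0.13, adjusted p = 0.0194). POLA2, the B subunit of polymerase alpha, had 27.1 and 29.1 CPM in constitutive DNp63 cells, against 35.1 and 58.7 CPM in GFP cells. POLA2 had 36.6 and 42.3 CPM in induced cells, against 73.5 and 78.8 CPM in uninduced cells, and its averaged log2 fold change was −0.85 ± 0.18 (adjusted p = 0.0195). POLD1, the catalytic subunit of the lagging-strand polymerase delta, had 32.3 and 56.1 CPM in constitutive DNp63 cells, against 100.1 and 88.5 CPM in GFP cells. In the inducible system POLD1 had 90.4 and 77.5 CPM in induced cells, against 113 and 98.8 CPM in uninduced cells, and the averaged log2 fold change was −0.71 ± 0.18 (adjusted p = 0.045). POLA1, PRIM1, PRIM2, POLD2 and POLD3 had estimates between −0.81 and −0.25 and did not pass. POLE2 was near the limit of detection, with at most 2.47 CPM in any library. The 3 calls were lost without any 1 library of the inducible system (adjusted p 0.0801 to 0.191), POLA2 and POLD1 without GFP replicate 2 (0.058 and 0.0815), and POLD1 without GFP replicate 1 (0.0733).

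PCNA was the gene of the clamp and its loader that fell. It had 38.3 and 34.7 CPM in constitutive DNp63 cells, against 54.7 and 71.2 CPM in GFP cells. Induced cells had 56.8 and 62.8 CPM of PCNA, against 113 and 101 CPM in uninduced cells. Its log2 fold change was −0.79 ± 0.21 in the constitutive system (adjusted p = 0.0438) and −0.84 ± 0.20 in the inducible one (adjusted p = 0.214), and −0.82 ± 0.14 averaged (adjusted p = 0.00863). The 5 subunits of replication factor C, which loads PCNA onto DNA, did not pass. RFC3 had 3.71 and 2.52 CPM in constitutive DNp63 cells, against 6.65 and 7.62 CPM in GFP cells, and 4.32 and 6.69 CPM in induced cells, against 7.25 and 7.87 CPM in uninduced cells (averaged log2 fold change −0.85 ± 0.29, adjusted p = 0.133). RFC5 had 53.7 and 40.7 CPM in constitutive DNp63 cells, against 52.5 and 77.3 CPM in GFP cells, and 67.8 and 70.2 CPM in induced cells, against 88.6 and 94.2 CPM in uninduced cells (averaged −0.44 ± 0.16, adjusted p = 0.167). RFC1, RFC2 and RFC4 lay between −0.34 and −0.21. Leave-out fits ended the PCNA call without induced replicate 1 (adjusted p = 0.0836), induced replicate 2 (0.053) or uninduced replicate 1 (0.0692).

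None of the 3 subunits of replication protein A, which coats single-stranded DNA, passed, and their median was −0.25 (1 of 3 lower at an unadjusted p under 0.05, and none called by DESeq2). RPA1, the largest subunit, had 182 and 179 CPM in constitutive DNp63 cells, against 172 and 200.3 CPM in GFP cells, with groups that overlap. It had 277 and 270.5 CPM in induced cells, against 294 and 301 CPM in uninduced cells, and its averaged log2 fold change was −0.08 ± 0.12 (adjusted p = 0.779). RPA2 had 47.1 and 32.8 CPM in constitutive DNp63 cells, against 36.2 and 44.5 CPM in GFP cells. It had 41.0 and 54.7 CPM in induced cells, against 67.6 and 65.5 CPM in uninduced cells, and an averaged log2 fold change of −0.25 ± 0.17 (adjusted p = 0.486). RPA3 had 6.57 and 10.1 CPM in constitutive DNp63 cells, against 11.5 and 16.3 CPM in GFP cells, and 15.3 and 17.9 CPM in induced cells, against 18.9 and 22.6 CPM in uninduced cells (averaged −0.53 ± 0.22, adjusted p = 0.212). RPA1 was higher in every library of the inducible vector, with or without doxycycline, than in every library of the constitutive system.

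**Figure D3:**
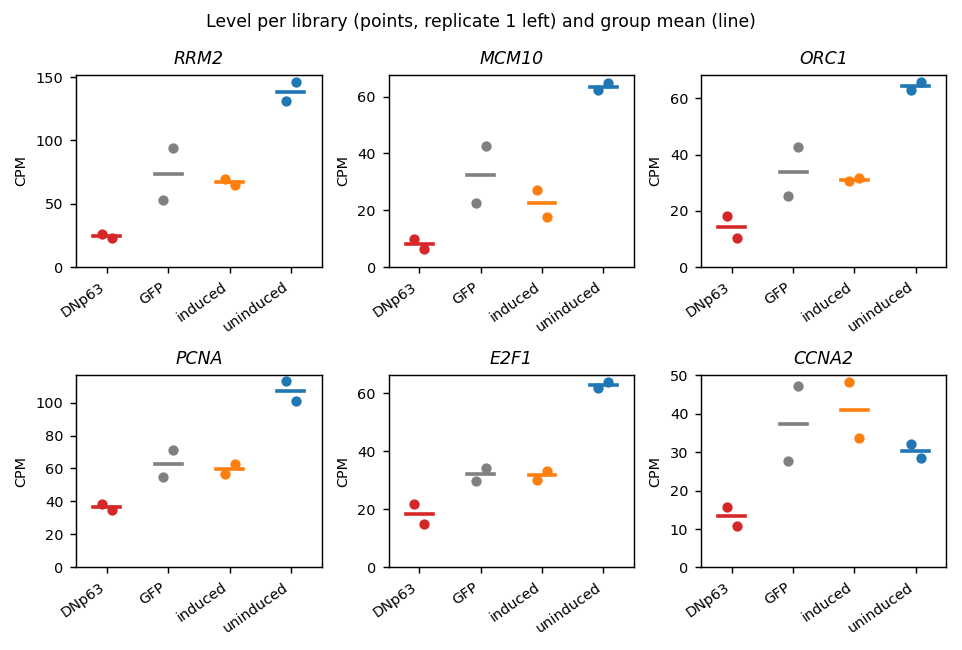
CPM (y axis, from 0) of RRM2, MCM10, ORC1, PCNA, E2F1 and CCNA2 in constitutive DNp63, GFP, induced and uninduced cells (x axis), with 1 point per library and a line at the group mean. For E2F1 the libraries stood, in that order, at 21.7 and 14.9, 29.9 and 34.3, 30.3 and 33.2, and 61.8 and 63.9 CPM.

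On the lagging strand, FEN1, the nuclease that trims the flaps of Okazaki fragments, fell. FEN1 had 72.9 and 54.3 CPM in constitutive DNp63 cells, against 72.4 and 126 CPM in GFP cells, where GFP replicate 1 lay just below DNp63 replicate 1. In the inducible system it had 74.6 and 77.1 CPM in induced cells, against 171 and 159.5 CPM in uninduced cells, and its averaged log2 fold change was −0.89 ± 0.18 (adjusted p = 0.0185). LIG1, the ligase that seals the fragments, had 21.1 and 43.3 CPM in constitutive DNp63 cells, against 48.0 and 88.5 CPM in GFP cells, and 45.0 and 56.7 CPM in induced cells, against 91.0 and 84.9 CPM in uninduced cells. Its averaged log2 fold change was −0.94 ± 0.24, just outside the threshold (adjusted p = 0.0502). UNG, the glycosylase that removes uracil from DNA, had 81.4 and 51.4 CPM in constitutive DNp63 cells, against 85.4 and 53.2 CPM in GFP cells, and 87.7 and 75.7 CPM in induced cells, against 105 and 106 CPM in uninduced cells (averaged −0.21 ± 0.19, adjusted p = 0.624). FEN1 was lost without induced replicate 1 (adjusted p = 0.128) or 2 (0.0973) and without uninduced replicate 1 (0.0916) or 2 (0.0764).

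Of the 4 genes of nucleotide supply, RRM2 and TK1 fell. RRM2, the S-phase subunit of ribonucleotide reductase, had 26.0 and 22.9 CPM in constitutive DNp63 cells, against 52.8 and 94.4 CPM in GFP cells. It had 69.7 and 64.5 CPM in induced cells, against 131 and 146 CPM in uninduced cells, and neither system's groups overlapped. Its log2 fold change was −1.61 ± 0.27 in the constitutive system (adjusted p = 0.00537), −1.05 ± 0.25 in the inducible one (adjusted p = 0.214) and −1.33 ± 0.18 averaged (adjusted p = 0.00201). RRM1, the large subunit of the same enzyme, had 24.3 and 31.0 CPM in constitutive DNp63 cells, against 41.0 and 47.6 CPM in GFP cells, and 45.8 and 50.8 CPM in induced cells, against 61.0 and 85.0 CPM in uninduced cells (averaged −0.64 ± 0.17, adjusted p = 0.0506). TK1, the thymidine kinase of the salvage pathway, had 61.7 and 40.2 CPM in constitutive DNp63 cells, against 73.5 and 109 CPM in GFP cells. TK1 had 86.0 and 102 CPM in induced cells, against 207 and 190.3 CPM in uninduced cells, and its averaged log2 fold change was −0.97 ± 0.18 (adjusted p = 0.0107). TYMS, which makes thymidylate, had 36.3 and 53.5 CPM in constitutive DNp63 cells, against 66.5 and 145 CPM in GFP cells. Its induced and uninduced libraries overlapped, with 104 and 87.3 CPM in induced cells, against 109 and 102 CPM in uninduced cells. TYMS fell in the constitutive system (−1.24 ± 0.33, adjusted p = 0.0445) and had −0.14 ± 0.32 in the inducible one (adjusted p = 0.995). The averaged TK1 call was lost without induced replicate 1 (adjusted p = 0.102) or 2 (0.0586) and without uninduced replicate 1 (0.0622) or 2 (0.0514).

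CHAF1A, the large subunit of the chromatin assembly factor that deposits histones behind the fork, was the 1 of 3 chromatin genes that fell. It had 66.9 and 60.9 CPM in constitutive DNp63 cells, against 73.5 and 115 CPM in GFP cells, and 80.5 and 90.3 CPM in induced cells, against 146 and 137 CPM in uninduced cells. The averaged log2 fold change of CHAF1A was −0.65 ± 0.16 (adjusted p = 0.0403). CHAF1B, its partner, had 28.6 and 28.9 CPM in constitutive DNp63 cells, against 32.5 and 39.2 CPM in GFP cells, and 39.9 and 42.5 CPM in induced cells, against 71.2 and 63.2 CPM in uninduced cells (averaged −0.52 ± 0.15, adjusted p = 0.0683). UHRF1, which brings the maintenance methyltransferase to new DNA, had 53.7 and 19.8 CPM in constitutive DNp63 cells, against 49.9 and 125 CPM in GFP cells. It had 63.0 and 82.6 CPM in induced cells, against 171 and 147 CPM in uninduced cells, a large estimate with a wide error (−1.21 ± 0.32, adjusted p = 0.0536), and GFP replicate 1 lay below DNp63 replicate 1. For CHAF1A the call ended without GFP replicate 2 (adjusted p = 0.104), induced replicate 1 (0.219) or 2 (0.134), or uninduced replicate 1 (0.183) or 2 (0.16).

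E2F1, the transcription factor whose targets include many of these genes, fell in the averaged comparison. It had 21.7 and 14.9 CPM in constitutive DNp63 cells, against 29.9 and 34.3 CPM in GFP cells. It had 30.3 and 33.2 CPM in induced cells, against 61.8 and 63.9 CPM in uninduced cells, and its averaged log2 fold change was −0.91 ± 0.17 (adjusted p = 0.0104). That call was lost without induced replicate 1 (adjusted p = 0.09) or 2 (0.0586) and without uninduced replicate 1 (0.0606) or 2 (0.0732). None of the 3 cyclins passed in the averaged comparison (2 lower at an unadjusted p under 0.05). CCNE2, an activator of CDK2 at the start of S phase, had 3.43 and 1.75 CPM in constitutive DNp63 cells, against 2.96 and 6.56 CPM in GFP cells, and 4.57 and 3.54 CPM in induced cells, against 7.85 and 6.32 CPM in uninduced cells (averaged −0.88 ± 0.37, adjusted p = 0.218). CCNE1, its paralogue, was counted at 1.48 to 8.86 CPM, and its averaged estimate of 0.22 ± 0.45 was the only positive one (adjusted p = 0.85). CCNA2, the cyclin of S phase and G2, had 15.7 and 10.9 CPM in constitutive DNp63 cells, against 27.7 and 47.2 CPM in GFP cells. In the inducible system CCNA2 had 48.3 and 33.8 CPM in induced cells, against 32.2 and 28.5 CPM in uninduced cells. Its DNp63 libraries were thus below GFP in 1 system and its induced libraries above the uninduced ones in the other.

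Taken alone, the constitutive comparison called 9 of the 50 genes lower and none higher, where 3.99% of all tested genes were called lower and 4.17% higher (8.16% in either direction). They were ORC1, CDT1, MCM10, TIMELESS, POLD1, PCNA, TYMS, RRM2 and CCNA2, and the median of the 50 was −0.66. Both DNp63 libraries lay below both GFP libraries for 29 of the 50, against 22% of all tested genes, and for none did they lie above. Beyond MCM10 and RRM2, the largest falls among the 9 were those of CCNA2 (−1.53 ± 0.33, adjusted p = 0.0179), ORC1 (−1.29 ± 0.32, adjusted p = 0.034) and TYMS. The count was 1 without GFP replicate 2, 19 without GFP replicate 1, 14 without DNp63 replicate 1, 6 without DNp63 replicate 2 and 3 without any 1 library of the inducible system, and RRM2 passed in each of these fits. MCM10 was lost without GFP replicate 2 (adjusted p = 0.065), CCNA2 without GFP replicate 2 (0.139) or DNp63 replicate 2 (0.0563), and the other 6 in 5 to 7 of the 8 such fits, at adjusted p up to 0.323 (TYMS without GFP replicate 2). Fitted on its own 4 libraries, the constitutive comparison called none of the 49 replication genes tested there (17 lower at an unadjusted p under 0.05) and 0.714% of all genes lower (2.36% in either direction).

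In the inducible comparison no replication gene passed in the fit of all 8 libraries, in which 0.0488% of all tested genes were called lower. The median was −0.62, 47 of 50 estimates were negative, 29 genes were lower at an unadjusted p under 0.05 and none higher, against 316 lower and 427 higher of all 12303 tested genes. DESeq2 called 9 of the 50 lower, and 35 of all 12303 genes lower. With no filter on low counts, edgeR called 14 of the 50, and 242 of all 18159 genes in either direction, 89 of them lower. Both induced libraries lay below both uninduced libraries for 44 of the 50, against 24% of all tested genes, and above them for CCNA2 alone. In a fit of the 4 libraries of this system, whose replicates lay closer together, 29 of the 50 fell and none rose, where 2.8% of all genes were called lower (6.43% in either direction). There CDC6 stood at a log2 fold change of −1.43 ± 0.14 (adjusted p = 1.16e-08), FEN1 had −1.12 ± 0.12 (adjusted p = 5.05e-08) and TK1 had −1.08 ± 0.12 (adjusted p = 9.59e-08). The spread behind these p-values may be technical. In the fit of all 8 libraries the same 3 genes had adjusted p of 0.254, 0.193 and 0.197. In both systems at once, 25 of the 50 genes had DNp63-expressing libraries below their controls without overlap, against 7.15% of all tested genes.

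In the filtered edgeR fit with no replicate term, no replication gene passed the test of the difference between systems. That difference, induced minus constitutive, had a median of 0.00 over the 50, with 25 estimates on either side. At an unadjusted p under 0.05, 2 were higher and 0 lower (825 and 671 of all tested genes). In the filtered edgeR fit 0.545% of all tested genes were called in either direction. DESeq2 called 1 of the 50 (CCNA2) and 255 of all 12303 genes. With no filter on low counts, edgeR called 2 of the 50 (CCNA2 and TYMS) and 558 of all 18159 genes. The systems share no library. For CCNA2 the difference was 1.97 ± 0.44 (adjusted p = 0.0973; 0.00987 in DESeq2 and 0.00017 in edgeR with no filter), from −1.53 ± 0.33 in the constitutive and 0.44 ± 0.30 in the inducible system. For TYMS it was 1.09 ± 0.45 (adjusted p = 0.365), a value that was 0.43 without GFP replicate 2.

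**Figure D4:**
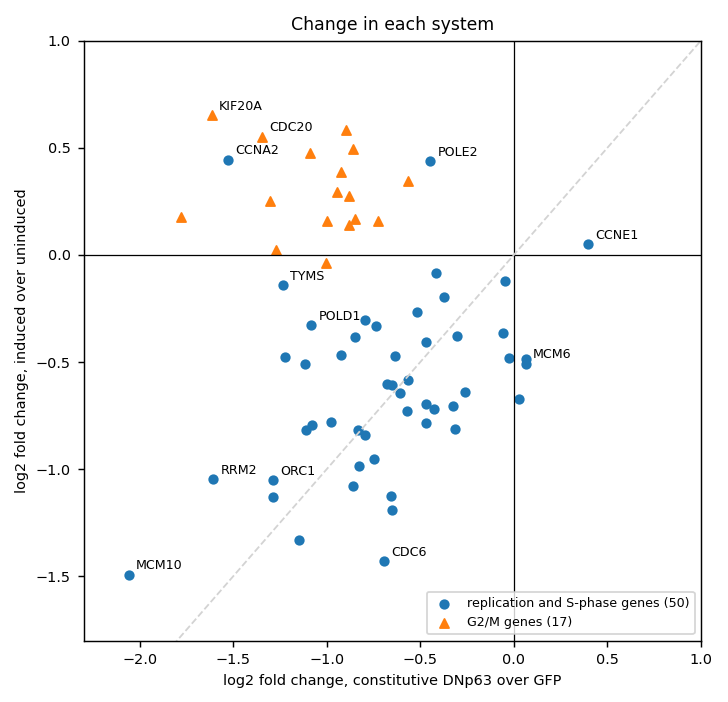
Log2 fold change of each replication gene in the constitutive system (DNp63 over GFP, x axis) and in the inducible system (induced over uninduced, y axis), circles, beside 17 mitotic genes, triangles, with the line of equal change dashed. Most circles lie below 0 on both axes, and CCNA2 lies at −1.53 on the x axis and 0.44 on the y axis. All triangles lie below 0 on the x axis, and most lie above 0 on the y axis.

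Genes of mitosis were listed beside the replication genes. Of 18 such genes 17 were tested, and in the constitutive system 6 fell (AURKB, BUB1B, CDC20, KIF20A, TOP2A and UBE2C) with a list median of −0.94. There 3.99% of all tested genes were called lower. All 17 estimates in that system were negative, against 46 of the 50 replication genes. At an unadjusted p under 0.05, 15 of the 17 were lower there, against 27 of the 50 and 1421 of all 12303 tested genes. Fitted on the 4 libraries of that system none of the mitotic genes was called (8 lower at an unadjusted p under 0.05), and 0.714% of all genes were called lower. In the inducible system none passed in the fit of all libraries (2 higher at an unadjusted p under 0.05, none called by DESeq2), 16 of 17 estimates were positive, and the median was 0.28. Fitted on its 4 libraries alone, 6 rose there (BUB1, CCNB1, CDC20, KIF20A, PLK1 and UBE2C) and none fell. In that fit 6.43% of all genes were called in either direction and 2.8% lower. CDC20, the activator of the anaphase-promoting complex, had 94.6 and 72.0 CPM in constitutive DNp63 cells, against 178 and 244 CPM in GFP cells. It had 273 and 263 CPM in induced cells, against 181 and 185 CPM in uninduced cells. The difference between systems for CDC20 was 1.90 ± 0.30 (adjusted p = 0.0301), and it was lost without any 1 library of the inducible system (0.176 to 0.242) or GFP replicate 2 (0.0531). All 17 estimates of that difference were positive, with a median of 1.30, against 0.00 for the 50 replication genes. Averaged over both systems none of the 17 passed (5 lower at an unadjusted p under 0.05, none called by DESeq2), with a median of −0.34. The part of cell-cycle phase composition in any of these values was not tested.

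Between the control groups no replication gene passed in the filtered edgeR fit, in which 0.00813% of all tested genes were called in either direction. With no filter on low counts, edgeR called 12 of the 50 higher in uninduced cells. That fit called 245 of all 18159 genes in either direction, 177 of them lower. Uninduced cells had the highest of the 4 group means for 46 of the 50 genes and GFP cells for 1, while constitutive DNp63 cells had the lowest for 44. This order of means was not counted over all tested genes. Against GFP cells, uninduced cells were higher by a median log2 difference of 0.64 (a fold of 1.56) with 47 of 50 estimates positive, while the median over all tested genes was −0.01. At an unadjusted p under 0.05, 26 were higher and 0 lower (464 and 656 of all tested genes). DESeq2 called MCM4 and TK1, and 57 of all 12303 genes in either direction, 44 of them lower. Both uninduced libraries lay above both GFP libraries for 35 of the 50, against 22% of all tested genes. Uninduced cells carry another vector, and their TP63 was above that of GFP cells (the values given at the outset), so vector, TP63 and group cannot be told apart here. The induced mean was above the GFP mean for 20 of the 50 genes and below it for 30. Both induced libraries lay within the range of the GFP libraries for 21. That range was wide for these genes, with a median difference of −0.45 (GFP replicate 1 minus 2, log2 CPM). The share of all tested genes that lay within it was not counted.

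Of 36 further genes of replication and S phase, 7 fell in the averaged comparison (ASF1B, CHTF18, CLSPN, EXO1, HELLS, MCM8 and RECQL4) and none rose, with a median of −0.37 and 26 of 36 estimates negative. Of all tested genes 2.41% were called lower and 3.26% higher. EXO1, a nuclease of mismatch repair and fork processing, had 7.14 and 6.21 CPM in constitutive DNp63 cells, against 11.5 and 22.4 CPM in GFP cells. It had 8.65 and 14.6 CPM in induced cells, against 33.6 and 32.0 CPM in uninduced cells, and its averaged log2 fold change was −1.45 ± 0.26 (adjusted p = 0.00888). RECQL4, a helicase needed to start replication, had 45.4 and 26.8 CPM in constitutive DNp63 cells, against 64.3 and 105 CPM in GFP cells, and 43.5 and 61.0 CPM in induced cells, against 95.2 and 86.3 CPM in uninduced cells (averaged −1.03 ± 0.22, adjusted p = 0.0206). CHTF18, a subunit of an alternative clamp loader, had 32.9 and 23.3 CPM in constitutive DNp63 cells, against 60.6 and 84.5 CPM in GFP cells, and 63.5 and 55.5 CPM in induced cells, against 75.5 and 64.1 CPM in uninduced cells (averaged −0.81 ± 0.17, adjusted p = 0.0219). EXO1 was lost without induced replicate 1 (adjusted p = 0.0693), and RECQL4 and CHTF18 without GFP replicate 2 (0.0754 and 0.0734) or any 1 library of the inducible system (0.0613 to 0.149). The other 4 calls were lost without GFP replicate 2, either uninduced library or induced replicate 1 (0.0728 to 0.202), among other fits.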

How the data were processed

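The deposited values are raw counts of reads per gene, 1 column for each of the 8 libraries. Per the submitters' processing notes, TopHat2 2.1, HTSeq, SAMtools and DESeq2 were used with the hg19 (GRCh37) genome. The sources used here name neither the annotation nor the strand setting. For 14 of the 50 genes an exon overlaps another gene of the table (GENCODE, another build, used for neighbours only), 13 of them on the opposite strand, and such reads cannot be told apart: CCNA2, CCNE2, CHAF1A, CHAF1B, FEN1, GINS2, MCM2, MCM7, PRIM1, RFC4, RFC5, RPA1, RPA3 and TYMS.

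Genes were filtered with filterByExpr (minimum count 10, 4 groups), scaled by TMM (trimmed mean of M-values) and analysed in edgeR 4.0.16 under R 4.3.3 by its quasi-likelihood pipeline with legacy estimates, with 1 mean per group and a spread shared by all 8 libraries. The 5 contrasts took the mean effect of both systems, each system, their difference (induced minus constitutive) and uninduced minus GFP. Tests were two-sided, adjusted by Benjamini-Hochberg over the 12303 tested genes, with calls at an adjusted p below 0.05. The standard errors derive from that model. Only the averaged comparison was also run on simulated counts, which held no difference between vectors or control groups. No result given here rests on that run. Alternatives were relative log expression size factors, no filter, DESeq2 1.42.0, a replicate block, each library left out, and each system fitted alone.

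The 50 genes and the other lists (further replication genes, mitotic genes, G1 regulators, squamous and non-epithelial markers) were chosen with earlier results of these data known. Library values are given for the 3 genes per role with the smallest averaged p, up to 8 called genes per comparison, and E2F1, PCNA, MCM2 and RRM2, 31 in all, and for up to 3 genes of each other list. MCM6, POLE2, CCNE1, CDC20 and KIF20A were singled out after their values were seen, although CDC20 and KIF20A also fell under that rule. BUB1B fell under it too, but its library values are not printed. RB1 and CDKN1A were given outside the rule.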

Additional observations from a re-analysis of the deposited data

Results flagged for a closer look

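A difference between the systems was tested for each gene as (induced minus uninduced) minus (constitutive DNp63 minus GFP) with edgeR's quasi-likelihood test. CCNA2 is given here because its libraries lay on opposite sides of their controls in the systems, without overlap: the difference was 1.97 ± 0.44 on the log2 scale, with an adjusted p of 0.0973 over all genes, 0.00987 in DESeq2, 0.00017 with no filter on low counts, and between 0.0289 (without GFP replicate 1) and 0.518 (without induced replicate 1) with a library left out. The mitotic genes CDC20 and KIF20A passed the same test, with differences of 1.90 (adjusted p = 0.0301) and 2.27 (adjusted p = 0.0305). They were 2 of the 17 mitotic genes tested, where 0.293% of all tested genes were called higher. KIF20A, a kinesin of cytokinesis, had 51.1 and 35.3 CPM in constitutive DNp63 cells, against 99.8 and 163 CPM in GFP cells, and 180.3 and 171 CPM in induced cells, against 104 and 119.6 CPM in uninduced cells. The KIF20A call was lost without any 1 library of the inducible system (adjusted p 0.174 to 0.246) or GFP replicate 2 (0.0611), and that of CDC20 without the same libraries (0.176 to 0.242, and 0.0531).

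TP63 itself differed between the systems by −5.99 (adjusted p = 0.00378), and its fold over control was 1915 in the constitutive and 30.2 in the inducible system. Of the squamous markers, CALML3 differed by −3.45 (adjusted p = 0.0301) and KRT6A by −4.33 (adjusted p = 0.00554). CALML3 had 451 and 552 CPM in constitutive DNp63 cells, against 5.54 and 1.48 CPM in GFP cells, and 55.1 and 55.9 CPM in induced cells, against 4.43 and 3.31 CPM in uninduced cells, and its difference was lost without any 1 library of the inducible system (0.17 to 0.242). KRT6A was lost without uninduced replicate 2 (0.117), induced replicate 1 (0.112) or induced replicate 2 (0.0963).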

How the results depend on the processing

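The median log2 fold change of the 50 genes in the averaged comparison lay between −0.70 (without GFP replicate 1) and −0.50 (without GFP replicate 2) under the alternatives run, of which leaving out libraries for this median was chosen after seeing the data. All 21 averaged calls were shared by the fits with relative log expression size factors (21 calls), DESeq2 (27), no filter (28) and the replicate block (25). With a library left out the averaged count ran from 2 to 29, the constitutive from 1 to 19, the inducible from 0 to 7, the difference between systems from 0 to 1 and the control difference from 0 to 0. The constitutive count of 9 was 21 with no filter, 16 in DESeq2 and 0 in the fit of its 4 libraries. The inducible count of 0 was 14 with no filter, 9 in DESeq2, 1 with the replicate block and 29 in the fit of its 4 libraries. The difference count of 0 was 2 with no filter, 1 in DESeq2 and 1 with the replicate block, and the control count of 0 was 12 with no filter and 2 in DESeq2. Over all genes the averaged calls numbered 697, against 1372 of 18159 genes with no filter, 885 in DESeq2 and 1040 with the block. The constitutive calls numbered 1004, against 1791 with no filter, 1221 in DESeq2 and 1400 with the block. The inducible calls numbered 35, against 242 with no filter, 110 in DESeq2 and 87 with the block. For the difference between systems they numbered 67, against 558, 255 and 270 in the same order. For the control difference they numbered 1, against 245 with no filter and 57 in DESeq2. The cause of these changes was not tested.

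With a library left out, the sign of a constitutive estimate that did not pass turned for CDC6 (range −1.26 to 0.040; 0.040 without GFP replicate 2), RPA2 (−0.32 to 0.22; 0.12 without GFP replicate 2 and 0.22 without DNp63 replicate 2), RPA1 (−0.16 to 0.053; 0.053 without GFP replicate 2) and UNG (−0.42 to 0.31; 0.31 without GFP replicate 1 and 0.25 without DNp63 replicate 2). In the check of pairing, deviations of same-numbered libraries from their group means correlated at 0.22 between constitutive DNp63 and GFP cells. Between induced and uninduced cells they correlated at −0.03. The main fits did not pair the samples by replicate number, although the constitutive groups share a vector by number. In the constitutive comparison edgeR with the replicate block gave TYMS −1.17 (adjusted p = 0.00381) and CCNA2 −1.51 (adjusted p = 0.00737). The replicate block called CCNA2 in the difference between systems (1.92, adjusted p = 0.0332). Where a fit leaves 1 library in a group, that library is assumed to vary like the other groups. POLE2, at 0 to 2.47 CPM, is limited by depth.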

Other observations

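Regulators of the passage out of G1 were counted in the same fit. Of 28 listed genes 25 were tested, and in the averaged comparison E2F2, E2F7 and SKP2 fell and CDKN2B rose, with a list median of −0.17, against −0.01 over all tested genes. Of all tested genes 2.41% were called lower and 3.26% higher. E2F2, an activating E2F factor, had 7.43 and 6.01 CPM in constitutive DNp63 cells, against 21.4 and 40.7 CPM in GFP cells. It had 20.5 and 17.5 CPM in induced cells, against 64.0 and 53.6 CPM in uninduced cells, with an averaged log2 fold change of −1.93 ± 0.23 (edgeR's quasi-likelihood test, adjusted p = 0.00066) that passed without any 1 library (adjusted p up to 0.0111). CDKN2B, an inhibitor of CDK4 and CDK6, had 43.1 and 44.8 CPM in constitutive DNp63 cells, against 18.5 and 18.0 CPM in GFP cells, and 17.9 and 13.4 CPM in induced cells, against 15.1 and 10.2 CPM in uninduced cells (averaged 0.80 ± 0.19, adjusted p = 0.0368). SKP2, a ubiquitin ligase subunit that targets CDK inhibitors, had 29.1 and 38.2 CPM in constitutive DNp63 cells, against 58.7 and 77.9 CPM in GFP cells, and 68.4 and 70.4 CPM in induced cells, against 77.5 and 88.5 CPM in uninduced cells (averaged −0.64 ± 0.16, adjusted p = 0.039). E2F7, a repressing E2F factor, had an averaged value of −0.78 ± 0.19 (adjusted p = 0.0409). The CDKN2B call was lost without either GFP library (0.0544 and 0.104) or any 1 library of the inducible system (0.0724 to 0.236), SKP2 without GFP replicate 2 (0.119) or any 1 library of the inducible system (0.127 to 0.214), and E2F7 without those (0.124, and 0.127 to 0.188) or DNp63 replicate 2 (0.0558). RB1, which encodes the retinoblastoma protein, was counted at 0 and 3 reads in constitutive DNp63, 1 and 7 in GFP, 0 and 3 in induced and 3 and 1 in uninduced libraries, and was not tested. CDKN1A, a p53 target that inhibits CDK2, had an averaged log2 fold change of −0.19 ± 0.20 and did not pass (adjusted p = 0.687).

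The promoter letters set the replication genes beside the mitotic genes. CCAAT, on either strand, stood in 62.5% of the replication windows, 87.5% of 16 windows of mitotic genes and 34.6% of all windows. CHR-type letters (TTTGAA or TTCGAA, on either strand) stood in 5.36%, 68.8% and 16.4% of the same sets. The E2F-type letters stood in 34.9% of 43 windows of the further replication genes and in 12.5% of the mitotic windows, and with the 2 strings TTTCCCGC and TTTGGCGC alone in 32.1% of the 50 genes' windows, against 2.27% of all windows. These shares are descriptions of the letters, and windows of 1 gene can overlap.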
